A study of Mus musculus with 4 samples.

Results

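The EGF receptor family was followed across the mouse epididymis and vas deferens through 7 genes, 3 receptors (Egfr, Erbb2 and Erbb3) and 4 ligands (Hbegf, Areg, Nrg1 and Tgfa). They were taken by name, and all 7 had a row among the 16892 genes of the single-cell count table. The 4 libraries, made with droplet microfluidics, came 1 each from the caput, corpus and cauda epididymis and the vas deferens of adult male FVB/NJ mice of 10 to 12 weeks. Each library pooled the 8 segments of 1 region from 4 mice, depleted of sperm and dissociated, and no treatment or allele is labelled. A region was therefore 1 library, and region and library cannot be told apart. No value had replicates, so no test and no p-value is given. Intervals are 95% intervals that cover counting error only, not the spread between animals or dissociations. Those of levels and ratios treat UMIs as independent, also where few cells hold most of them.

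The libraries held 1433 caput, 2325 corpus, 1616 cauda and 3506 vas deferens cells, with 4408989 to 10744928 unique molecular identifiers (UMIs) each and medians of 1433 to 2207 UMIs per cell. The 34 populations named in the deposited table of cells were joined into 7 cell types: 3956 principal, 1412 basal, 348 clear, 2222 stromal, 502 muscle, 245 endothelial and 195 immune cells. For each type, its list of defining markers took a higher share of UMIs there than in any other type, and none of those markers was at 0 in its own type. Single markers could differ: 6 of 8 principal and 3 of 4 basal markers were highest in their own type. The principal markers Krt8 and Krt18 were highest in basal cells, and the basal marker Itga6 in endothelial cells. In the other types every marker was highest in its own type. A level, written UPM, divides the summed UMIs of a gene in a group by all UMIs of that group and multiplies by 1000000. Levels by library are listed from caput to corpus, cauda and vas deferens. Levels are compared between groups for 1 gene, never between genes, since the fragments counted depend on each transcript's end. Cell types were built from these same counts, so a difference between types is a description.

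EGF-like ligands are made as membrane-bound precursors, and proteases such as ADAM17 and ADAM10 release them. Hbegf (heparin-binding EGF-like growth factor), Areg (amphiregulin) and Tgfa (transforming growth factor alpha) encode ligands of the EGF receptor, whereas Nrg1 encodes neuregulin 1, which binds the ERBB3 and ERBB4 receptors. ERBB2 has no known ligand and signals as a partner of the other receptors, and ERBB3 has little kinase activity of its own. The epithelium of the duct is made of columnar principal cells, proton-secreting clear cells and basal cells that lie on the basement membrane, and EGF receptor signalling is widely known for growth and repair in such epithelia.

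The start regions of Egfr and Areg are shown because these members contrast in the library comparison below: basal Egfr varied least between libraries among the pairs of member and type with at least 20 UMIs in the highest library, and Areg passed 2 times in principal, basal and stromal cells. Both are the 250 bases before the annotated start, from RefSeq on build GRCm38.p6, at chr11:16751953-16752202 (plus strand) for Egfr and chr5:91139349-91139598 (plus strand) for Areg. Capitals mark the CRE letters TGACGTCA and the TATA letters TATAAA.
Egfr: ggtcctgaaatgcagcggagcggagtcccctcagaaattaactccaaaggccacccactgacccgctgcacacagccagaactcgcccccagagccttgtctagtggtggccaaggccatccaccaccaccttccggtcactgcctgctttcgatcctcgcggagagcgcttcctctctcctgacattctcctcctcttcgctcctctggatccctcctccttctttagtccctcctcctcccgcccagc
Areg: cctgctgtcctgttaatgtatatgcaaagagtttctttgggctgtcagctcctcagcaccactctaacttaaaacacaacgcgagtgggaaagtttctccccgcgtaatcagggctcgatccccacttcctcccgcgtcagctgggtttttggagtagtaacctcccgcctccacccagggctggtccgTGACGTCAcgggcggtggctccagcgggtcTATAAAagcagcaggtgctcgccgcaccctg
The Areg region held the CRE letters at -61 to -54 and the TATA letters at -31 to -26 before the start, and the Egfr region held neither. Of 32851 mouse promoter regions of this length, 1.55% held the CRE letters on either strand and 12.4% the TATA letters. Both regions held the SP1 letters GGGCGG, present in 32.7% of regions, and neither held the AP-1 letters (TGACTCA or TGAGTCA, in 4.46%) or the EGR letters (GCGGGGGCG or GCGTGGGCG, in 3.06%), which can share bases with the SP1 letters. A match is a description of letters and not of binding. Of the other members, Tgfa and Erbb2 also had an entry there and are not printed, whereas Erbb3, Nrg1 and Hbegf had none.

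Members differed in which cells held them. Of 12868 genes with at least 20 UMIs in some type, 24.0% stood at least 2 times higher in 1 type than in every other, and 3 of the 7 members did so: Egfr and Nrg1 in basal cells and Areg in immune cells. Against that background, 3 of 7 is no result about the members as a group. The basal direction was the rarest of the 7, at 2.01% of 9862 genes, and the immune direction the commonest, at 13.6% of 2994. In the directions that other genes of the pathway take below, the background was 5.28% for principal, 7.89% for clear, 3.97% for stromal and 7.36% for endothelial cells. At 4 times, Egfr and Nrg1 in basal cells passed, where the share over all genes was 0.75% (10.6% for any type). The study of these same cells had already named Egfr, Hbegf and Nrg1 among the genes of its basal clusters. The members were chosen with earlier results of these data known, so their basal calls are a description and give no independent support. The plot of levels by cell type shows these patterns side by side.

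**Figure D1:**
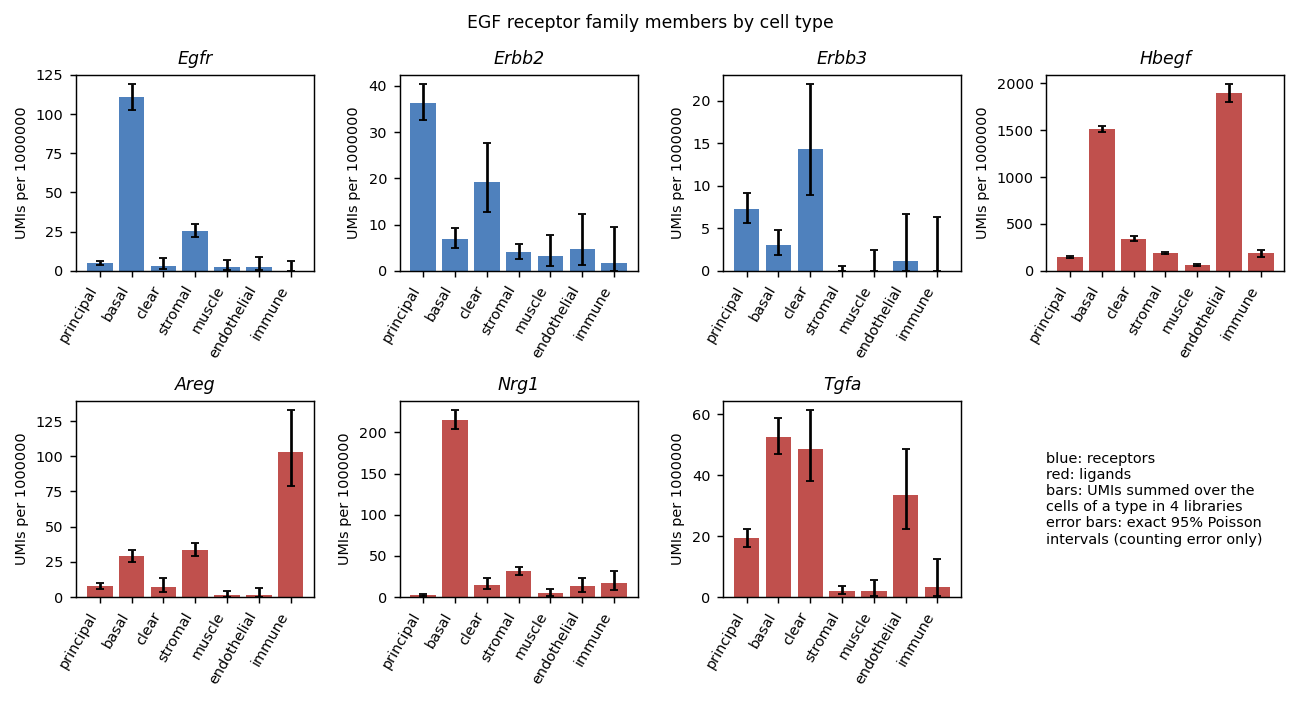
Level of each member in 7 cell types, in UMIs per 1000000 UMIs of the type on the y axis, with each panel on its own scale from 0. Bars pool the cells of 4 libraries (blue receptors, red ligands) and error bars are exact 95% Poisson intervals for counting error. Egfr and Nrg1 are highest in basal cells, at 110.6 and 214.9, Erbb2 in principal cells at 36.4, and Hbegf in endothelial and basal cells.

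The genes other than Hbegf lie, on GRCm38 by GENCODE M21, at chr11:16752203-16918158 (Egfr, plus strand), chr11:98412470-98437716 (Erbb2, plus), chr10:128567523-128589652 (Erbb3, minus), chr5:91139599-91148432 (Areg, plus), chr8:31814551-32884029 (Nrg1, minus) and chr6:86195223-86275719 (Tgfa, plus). UMIs were counted per gene from the transcript ends.

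Egfr, the receptor that binds most EGF-like ligands, was chiefly a transcript of basal cells. Basal cells held 75.4% (72.5 to 78.2) of its 907 UMIs, against 23.2% of all UMIs. Its level there was 110.6 UPM (102 to 119), against 25.4 (21.7 to 29.6) in stromal cells, a ratio of 4.35 (3.66 to 5.19). Stromal cells stood in turn 5.18 times (3.72 to 7.32) above principal cells at 4.91 UPM, and principal, clear, muscle and endothelial cells, at 2.39 to 4.91 UPM, did not differ from their neighbours in that order beyond counting error. Immune cells held 0 Egfr UMIs, which allows up to 6.34 UPM. Shares of cells were taken after thinning to 1000 UMIs. Cells with fewer were left out, among them 257 of 1412 basal and 2062 of 3956 principal cells. Of the 1155 basal cells kept, 11.3% (9.49 to 13.2) had an Egfr UMI, against 0 of 158 immune cells (a limit of 2.31%). Without thinning the share over all basal cells was 34.3%, at a median of 4333 UMIs per basal cell and 2887 per immune cell.

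Basal Egfr was nearly level along the duct. It was 103.5, 105.1, 127.6 and 116.2 UPM from caput to vas deferens, and the highest over the lowest was 1.23 (0.961 to 1.58). All 4 intervals overlapped. Stromal Egfr, by contrast, was 8.37, 12.7, 16.2 and 45.4 UPM, with the vas deferens 5.43 times (2.55 to 13.8) the caput. The vas deferens excess lay in its own stromal populations. Secretory stromal cells of the vas deferens (226 cells, 213 of them from that library) reached 102.1 UPM, within the interval of basal cells of the same library (ratio 0.879, 0.652 to 1.17), and stem-like stromal cells (549 cells, 517 from that library) held 35.9, whereas connective stromal cells in the vas deferens library held 8.22 UPM on 5 UMIs. Connective stromal cells held more of the muscle markers (1.13% of UMIs) than of the stromal markers (0.292%). Stem-like cells held 0.0445% and 1.29%, and secretory cells 0.0224% and 2.18%. Comparisons with connective cells are therefore with a population rich in muscle transcripts. Fibroblasts, at 0.103% muscle and 2.32% stromal markers, held 0 Egfr UMIs in 39 vas deferens cells (up to 30.1 UPM) and in 4 caput cells. Their level was 9.37 UPM on 3 UMIs in the cauda and 60.4 (22.2 to 131) on 6 UMIs of 36 cells in the corpus. The part of the mix of stromal populations in the library contrast was not tested. Without the vas deferens library, basal Egfr stood 8.51 times above the next type, and by the deposited clusters, of which there are 21, the highest basal cluster stood 2.42 times above the highest other one.

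Among basal cells, Egfr differed by population. The main population (917 cells) held 102.2 UPM, Notch2-high basal cells (165 cells) 107.9, and the 315 cells named for low UMIs 250.7, which was 2.45 times (1.93 to 3.09) the main population. Hbegf was also higher in the low-UMI cells than in the main basal cells, at 1.93 times (1.80 to 2.06), and so were Nrg1 at 1.96 times (1.61 to 2.37), Areg at 2.56 times (1.59 to 3.96) and Tgfa at 1.67 times (1.10 to 2.46). The part of low depth in these higher levels was not tested. Low-UMI cells made up 30.9, 28.2, 16.1 and 10.9% of basal cells from caput to vas deferens.

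Erbb2, the receptor with no known ligand, lay mainly in principal cells, opposite to Egfr. Principal cells held 76.5% (72.3 to 80.3) of its 455 UMIs, against 35.9% of all UMIs. Their level was 36.4 UPM (32.7 to 40.4), against 19.2 (12.7 to 27.7) in clear cells and 6.95 (5.03 to 9.37) in basal cells, and principal over clear was 1.90 (1.291 to 2.901). Stromal, muscle, endothelial and immune cells, at 1.72 to 4.79 UPM, did not differ from their neighbours in that order beyond counting error. Averaged over cells in place of summed UMIs, the order of principal and clear cells turned, to 0.780, and by the deposited clusters the principal lead was 6.53. After thinning, 4.33% (3.46 to 5.35) of the 1894 principal cells kept had an Erbb2 UMI.

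Within principal cells Erbb2 was 13.9, 56.4, 59.8 and 29.9 UPM from caput to vas deferens. The caput was lowest and its interval (8.92 to 20.7) lay below the other 3, and cauda over caput was 4.29 (2.73 to 7.00). Over populations the highest was principal 6, a corpus population of 341 cells, at 115.1 UPM, and the next were principal 10, principal 11 and principal 8 at 62.9 to 65.1. The end of Erbb2 overlaps Mien1 on the opposite strand, a gene with 7314 UMIs, and how the counting used strand is not given in the sources used here, so some Erbb2 UMIs may belong to Mien1. Mien1, like Erbb2, was highest in principal cells, at 660.8 UPM, and next in clear cells, at 350.3. Within principal cells it was 324.3, 450.4, 493.8 and 910.4 UPM from caput to vas deferens, so that the caput was lowest and the cauda above the corpus for both genes, and the vas deferens was highest for Mien1 alone. The part of Mien1 in the Erbb2 counts was not tested.

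Erbb3, a receptor for neuregulins, was the scarcest member, with 110 UMIs. It was 14.4 UPM (8.89 to 22.0) in clear cells, 7.21 (5.61 to 9.13) in principal cells and 3.07 (1.85 to 4.80) in basal cells, and clear over principal was 1.99 (1.16 to 3.29). Each of these steps exceeded counting error, but clear cells held 21 UMIs, and by the deposited clusters the order of clear and principal cells turned (0.607). Stromal, muscle and immune cells held 0 UMIs, which allows up to 0.569 UPM in stromal, 2.42 in muscle and 6.34 in immune cells. In principal cells it was 3.48 UPM in the caput and 7.47 to 9.87 in the other 3 libraries, on 6 to 35 UMIs. Erbb4, the remaining receptor of the family, had 1 UMI in all 8880 cells.

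Hbegf, the most counted member with 14256 UMIs, was high in endothelial and basal cells. Its level was 1899 UPM (1806 to 1994) in endothelial and 1516 (1485 to 1547) in basal cells, a ratio of 1.25 (1.19 to 1.32), and basal cells stood 4.42 times (4.04 to 4.85) above clear cells at 342.8. Stromal cells at 185.9 and immune cells at 185.5 did not differ beyond counting error, and principal cells held 145.7 and muscle cells 58.4. The order of endothelial and basal cells turned when libraries were weighted equally (0.951), cells were averaged (0.987) or the deposited clusters were used (0.655). After thinning, 62.7% of basal cells (59.8 to 65.5) and 61.5% of endothelial cells (54.4 to 68.3) had an Hbegf UMI, against 3.31% (1.72 to 5.70) of muscle cells. A basal cell with Hbegf held a median of 5 UMIs of it and at most 94, and an endothelial cell a median of 4 and at most 114.

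Basal Hbegf was 1032, 1891, 1674 and 1223 UPM from caput to vas deferens, and none of the 4 intervals overlapped. Corpus over caput was 1.83 (1.73 to 1.95). Notch2-high basal cells in the caput went the other way, at 3556 UPM on 240 UMIs of 17 cells, against 1243 to 1694 in the other libraries. Principal Hbegf was 138.7, 145.2, 210.4 and 124.5 UPM, with cauda over vas deferens at 1.69 (1.48 to 1.93). Clear cells had the wider range, at 191.8, 158.5 and 540.6 UPM in the 3 epididymal libraries, with cauda over corpus at 3.41 (2.64 to 4.46). The 38 clear cells of the vas deferens, fewer than the 50 required for the library ratios, held 420.5. Among clear populations, 54 Krt14 clear cells held 710.0 UPM, main clear cells 382.2 and Amylin-positive clear cells 163.9. The Krt14 cells were shallow, with a median of 698.5 UMIs per cell against 5327.5 and 4544.5, and held 43659 UMIs of all genes together. Krt14 is a basal keratin, and the part of basal transcripts and of low depth in the level of the Krt14 clear cells was not tested. Main clear cells alone held 162.5, 177.1 and 537.6 UPM in the epididymal libraries, so the cauda level was as high without the Krt14 cells. Endothelial Hbegf was 1207 UPM in 50 caput cells and 1559 in 144 vas deferens cells (ratio 1.29, 1.09 to 1.54), with 2543 in 39 corpus cells and 3855 in 12 cauda cells.

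Areg, a ligand known to be made by immune and epithelial cells in injury, was spread over few cells. Immune cells held 103.1 UPM (78.7 to 133), stromal cells 33.8 (29.4 to 38.5) and basal cells 28.9 (24.9 to 33.5), and stromal and basal cells did not differ beyond counting error (1.17, 0.953 to 1.43). Immune over stromal was 3.05 (2.26 to 4.08), but 11 immune cells carried all 60 UMIs and 1 of them carried 20. By library, immune Areg was 0 UMIs in 11 caput cells, 283.7 UPM in 38 corpus cells, 94.4 in 28 cauda cells and 56.5 in 118 vas deferens cells. The call at 2 times was lost without the corpus library (1.77), as a mean over cells (1.67), with equal weight of libraries (1.93) and by the deposited clusters (1.25), and without the vas deferens library the ratio was 5.41. In stromal cells 67 of 2222 cells carried 219 UMIs, at most 17 in a cell. Thus a few cells set these levels, and after thinning only 3.16% (1.04 to 7.23) of immune, 2.16% (1.41 to 3.18) of basal and 1.77% (1.20 to 2.52) of stromal cells had an Areg UMI. Among immune cells, 26 Trem2 macrophages held 356.5 UPM and 104 other macrophages 94.6, a ratio of 3.77 (2.16 to 6.57), and T cells held 27.2 on 3 UMIs.

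Basal Areg was 7.80, 36.1, 51.2 and 22.2 UPM from caput to vas deferens, and cauda over caput was 6.57 (3.371 to 14.02). Stromal Areg was 1.20 UPM on 1 UMI in the caput, and 31.5, 29.0 and 48.6 UPM in the others. Principal Areg was 5.22, 17.6, 20.7 and 0.854 UPM, with cauda over vas deferens at 24.2 (8.68 to 93.7). The caput was lowest in basal and stromal cells, and the vas deferens in principal cells. In the vas deferens the stromal Areg lay in secretory cells at 109.5 UPM, 2.55 times (1.75 to 3.74) the stem-like cells at 42.9, while connective stromal cells of that library held 1 UMI.

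Nrg1, which encodes a ligand of ERBB3 and ERBB4, was the member most concentrated in 1 type. Basal cells held 214.9 UPM (204 to 227), 6.84 times (5.89 to 7.96) the stromal cells at 31.4 (27.3 to 36.1). Immune, clear and endothelial cells held 13.2 to 17.2, and principal cells, which carry most Erbb2, held 2.30 (1.44 to 3.48). Without the vas deferens library basal cells stood 16.3 times above the next type, as a mean over cells 4.52 times and by the deposited clusters 3.07 times. Basal levels were 178.6, 247.9, 181.9 and 216.1 UPM from caput to vas deferens, and corpus over caput was 1.39 (1.20 to 1.61). Notch2-high basal cells held 377.8 UPM, 2.06 times (1.80 to 2.36) the main basal cells at 183.2.

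Outside basal cells Nrg1 was chiefly a transcript of the vas deferens stroma. Stromal Nrg1 was 1.20 UPM on 1 UMI in the caput, then 7.62, 11.9 and, for the vas deferens, 69.3 UPM, which was 9.20 times (6.216 to 14.04) the stromal cells of the 3 epididymal libraries together. Stem-like stromal cells of the vas deferens held 115.7 UPM, 9.86 times (6.98 to 14.2) the connective stromal cells of all libraries at 11.7, which are rich in muscle markers. The connective cells of the vas deferens library held 39.4 UPM on 24 UMIs, against 1.32 to 8.92 in the other libraries. Fibroblasts, poor in muscle markers, held 57.2 UPM on 7 UMIs in the vas deferens and 21.9 on 7 UMIs in the cauda, with 0 UMIs in the corpus and caput. Secretory stromal cells, the population highest in stromal Egfr and Areg, held 13.3. Stem-like cells thus held both Nrg1 and Egfr, but the order of the stem-like and secretory populations differed, at 115.7 and 13.3 UPM for Nrg1 and 35.9 and 102.1 UPM for Egfr.

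Tgfa was an epithelial and endothelial transcript, with no single type ahead. Basal cells held 52.6 UPM (47.0 to 58.6), clear cells 48.6 (37.9 to 61.3) and endothelial cells 33.5 (22.3 to 48.4), and neither of these steps exceeded counting error. Principal cells held 19.2, and immune, stromal and muscle cells 1.97 to 3.44. Without the corpus or the vas deferens library, clear cells came ahead of basal cells (basal over clear 0.853 and 0.984), while as a mean over cells basal over clear was 1.66. Main clear cells, at 57.0 UPM, stood 3.13 times (1.36 to 8.85) above Amylin-positive clear cells at 18.2.

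Basal Tgfa was low in the caput: 10.6 UPM (5.95 to 17.5), against 56.8, 80.5 and 68.8 UPM in the 3 libraries that follow. Outside the caput basal cells held 6.11 times (3.65 to 11.1) the caput level. In the main basal population alone the levels were 11.5, 57.7, 72.1 and 68.2 UPM in the same order, again lowest in the caput. Thinned to 1000 UMIs, 1 of 244 caput basal cells had a Tgfa UMI (0.410%, 0.0104 to 2.26), against 6.03% of 398 corpus, 11.2% of 170 cauda and 6.71% of 343 vas deferens cells. Principal Tgfa was also lowest in the caput, at 7.54 UPM, against 31.0, 12.6 and 22.4 UPM, and corpus over caput was 4.11 (2.18 to 8.32). Clear cells held 37.6, 27.8 and 70.8 UPM in the epididymal libraries, with cauda over corpus at 2.54 (1.34 to 5.17). Clear cells were thus above basal cells in the caput and below them in the corpus.

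**Figure D2:**
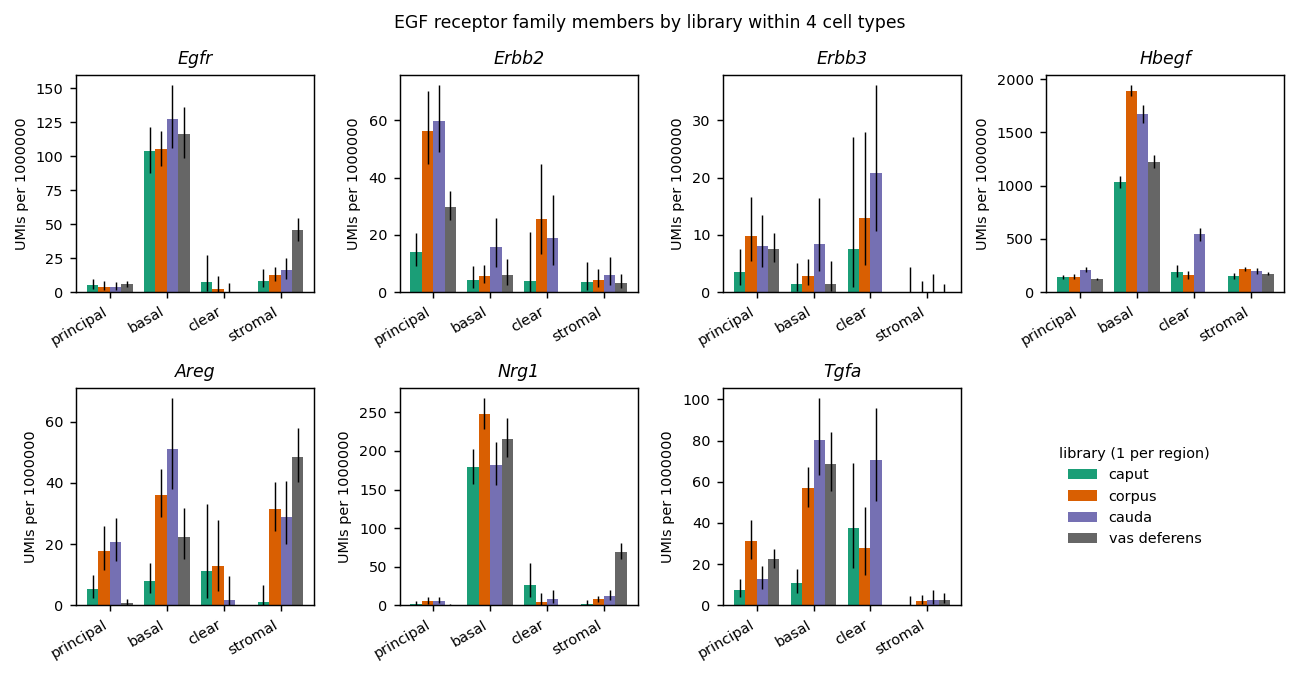
Level of each member in UMIs per 1000000 within principal, basal, clear and stromal cells, by library (1 per region), with exact 95% Poisson intervals for counting error. Each panel has its own y axis from 0, and a library with fewer than 50 cells of a type (clear cells of the vas deferens) is not drawn. Basal Egfr is level, basal Tgfa and Areg are lowest in the caput at 10.6 and 7.80, and stromal Nrg1 and Egfr are highest in the vas deferens at 69.3 and 45.4.

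Differences of this size between libraries were common among all genes. Of 17 member and type pairs with at least 20 UMIs in the highest library, 10 passed 2 times between the highest and lowest library, against 44.2% of 36449 such pairs over all genes. In principal cells it was 3 of 5 members against 66.7% of genes, in basal cells 2 of 5 against 43.6%, in clear cells 2 of 2 against 25.9%, in stromal cells 3 of 4 against 48.7% and in endothelial cells 0 of 1 against 26.8%. In principal and basal cells the members therefore varied between libraries about as genes do in general. Basal Areg (6.57) and Tgfa (7.57) lay well past the median ratio of genes in basal cells, 1.86, and Egfr, Nrg1 and Hbegf (1.23, 1.39 and 1.83) below it. That median over all genes was not matched for UMIs, and ratios on few UMIs spread more widely. Basal Areg and Tgfa had 179 and 325 UMIs, and Egfr, Nrg1 and Hbegf 684, 1329 and 9372.

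Hbegf and Areg are immediate-early genes that can be induced when tissue is dissociated, so a list of 19 early-response genes such as Fos and Jun was measured beside them. The list took 2.75, 1.57, 1.37 and 2.16% of basal UMIs from caput to vas deferens, and Fos alone was 1261 UPM in the caput against 100.4 to 223.5 elsewhere. UMIs of the list were summed, so its most counted genes weigh most. Over all basal cells Klf6 held 3727 UPM and Jun 2841, against 401.5 for Fos, and Klf6 was itself 2.22 times higher in basal cells than in the next type. The part of single genes in the basal list share was not tested. The order of libraries was the reverse of that for basal Areg and nearly so for Hbegf: the caput was highest in the list and lowest in Hbegf, Areg and Tgfa. In stromal cells the list took 3.50% in the caput and 1.56 to 1.82% elsewhere, and stromal Hbegf, at 148.3 UPM, and Areg were likewise lowest in the caput.

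Cells of the same depth showed the same direction in basal cells. Of 1155 basal cells thinned to 1000 UMIs, the 527 above the median of the list held 1192 UPM of Hbegf and the 628 at or below it 1901, a ratio of 0.627 (0.568 to 0.691). Within the libraries the ratio was 0.394, 0.837, 0.734 and 0.801 from caput to vas deferens, and each interval lay below 1. Immune cells went the other way, with 314.3 UPM above and 90.9 at or below the median (3.46, 1.48 to 8.98), as did endothelial cells (1.34, 1.07 to 1.69), and principal cells showed no difference beyond counting error (1.04, 0.810 to 1.34). Basal Nrg1 gave 0.769 (0.594 to 0.993) over all libraries, but 0.319 (0.166 to 0.581) for caput cells, 0.787 (0.518 to 1.19) for corpus cells and 1.10 (0.656 to 1.84) for vas deferens cells. Basal Tgfa gave 0.609 (0.356 to 1.02) and Areg 0.288 (0.106 to 0.671) on 7 and 29 UMIs, but basal Areg gave 0.941 when cells were thinned to 500 UMIs. Stromal Hbegf showed no difference over all libraries (1.06, 0.849 to 1.32) but 2.24 (1.503 to 3.385) in the corpus. The part of the dissociation in these levels was not tested.

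**Figure D3:**
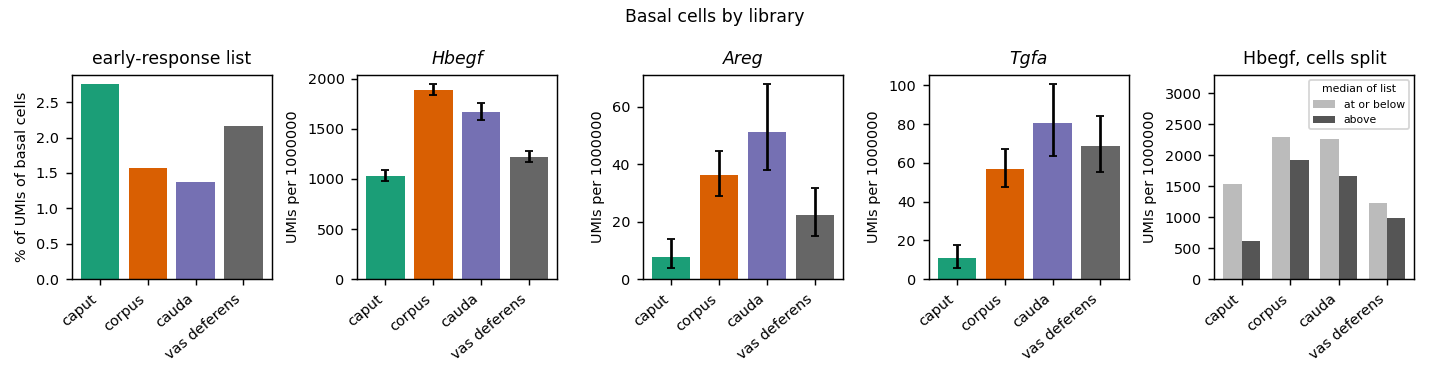
Basal cells by library: the share of UMIs taken by 19 early-response genes (first panel, %), the levels of Hbegf, Areg and Tgfa in UMIs per 1000000 with exact 95% Poisson intervals, and Hbegf in cells thinned to 1000 UMIs, split at each library's own median of the list. The caput has the highest list share, 2.75%, and the lowest of each of the 3 ligands, and in every library Hbegf is lower in the cells above the median.

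Ligand and receptor could be seen in the same basal cells about as often as their separate shares give. Of 1155 thinned basal cells, 92 (7.97%, 6.47 to 9.68) had both an Hbegf and an Egfr UMI, where the product of the single shares was 7.06%. Egfr was found in 12.7% of the cells with an Hbegf UMI and in 8.82% of those without. Tgfa and Egfr were together in 8 cells (0.693%, product 0.653%) and Nrg1 with Egfr in 26 (2.25%, product 2.02%). Nrg1 and its receptor gene Erbb3 were together in 1 basal cell. No thinned basal cell had both Egfr and Erbb2, a limit of 0.319% where the product of the shares was 0.0974%. The part of differences in capture between cells in these joint shares was not tested.

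The family beyond the members, and the pathway around it, came from 8 lists of 85 genes, 84 of which had a row. Of the 80 with enough UMIs, 18 stood at least 2 times higher in 1 type, against 24.0% of all genes. These 18 include the calls of Egfr, Nrg1 and Areg given above. Without the lists of receptors and ligands it was 13 of 68. Among the other ligands, Egf was a principal cell transcript at 24.7 UPM, 5.15 times (2.462 to 12.96) the clear cells, and Epgn (epigen) a basal one at 24.7 UPM on 153 UMIs, with 1 UMI in the next type. Nrg2 was 26.2 in stromal and 24.9 in basal cells, a ratio of 1.05 (0.841 to 1.32), and Nrg4 had 27 of its 30 UMIs in principal cells. Btc had 59 UMIs in all, with its highest level in stromal cells at 5.24 UPM, and Ereg 21 UMIs in all.

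Of 6 shedding genes with enough UMIs, 1 was past 2 times, the protease gene Adam10 in clear cells at 346.9 UPM (2.63 times endothelial cells). Adam17, the main protease for EGF receptor ligands, was highest in immune cells (1.49, 0.819 to 2.73), and Cd9, a tetraspanin known to associate with the Hbegf precursor, in basal cells at 1117 UPM (1.44, 1.33 to 1.56). Of 14 receptor inhibitors and trafficking genes 5 passed, 3 of them in endothelial cells, led by the ubiquitin ligase gene Cblb (2.51), Socs5 (2.38) and, in clear cells, Lrig1 (2.27), which encodes a receptor antagonist. Of 20 adaptors and kinases 1 passed, Akt1 in clear cells (2.12), and Pik3ca in muscle cells (1.98) and Grb2 in immune cells (1.95) came next. Of 11 genes known as targets of ERK signalling 3 passed: Fosl1, a transcription factor, at 550.5 UPM in basal cells (3.37, 3.15 to 3.62), the phosphatase gene Dusp6 in endothelial cells (2.53) and Etv4 in basal cells (2.41). Of the 19 early-response genes 3 passed, Nr4a1 in stromal cells (2.71) and Dnajb1 (2.42) and Klf6 (2.22) in basal cells.

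Likeness of pattern was described over the 31 populations with at least 30 cells, as Pearson's r of log2(UPM + 10) among 11083 genes of at least 100 UMIs. All values share the same 4 libraries and cell labels, and no p is given. Among members, Egfr and Nrg1 (r = 0.80), Hbegf and Nrg1 (0.77), and Erbb2 and Erbb3 (0.65) were most alike, and Erbb2 and Nrg1 least (-0.25). The nearest other genes were Lif (0.88), Ces2g (0.84) and Dio3 (0.84) for Egfr, and Hdac6 (0.91), Cyp51 (0.89) and Dpp4 (0.88) for Erbb2. For Erbb3 they were Vrk3 (0.81), Llgl2 (0.80) and Zbtb7b (0.79), and for Hbegf Epha2 (0.89), Irx3 (0.88) and Ahr (0.87). For Areg they were Fam46a (0.82), Gas2l3 (0.76) and Csrnp1 (0.73), for Nrg1 F3 (0.92), Wnt10a (0.90) and Rap2b (0.89), and for Tgfa F11r, which encodes a tight-junction protein (0.81), and Fam83h (0.81). Of the 21 genes nearest to the 7 members, 7 were also among the 3 nearest by Spearman's rho.

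**Figure D4:**
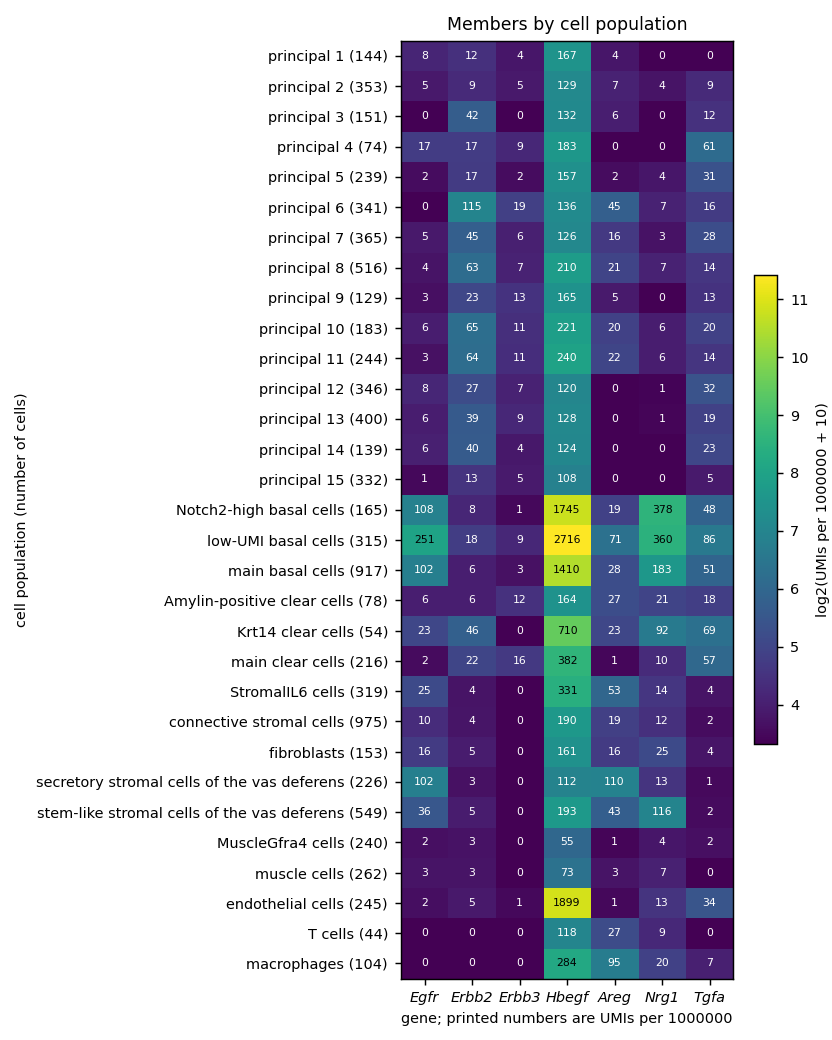
Level of each member in the 31 populations with at least 30 cells, as printed numbers (UMIs per 1000000) and as colour on a log2(UMIs per 1000000 + 10) scale; cell numbers are in parentheses. Hbegf and Nrg1 are high in the 3 basal populations, Erbb2 peaks in principal 6 at 115.1, and secretory stromal cells of the vas deferens hold Egfr at 102.1 and Areg at 109.5.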

How the data were processed

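Single-cell RNA of 4 libraries was analysed from the deposited UMI counts, whole numbers per gene and cell. The authors aligned reads to mm10 with HISAT2 2.0.4, counted UMIs on RefSeq genes with ESAT, kept barcodes of 350 to 15000 UMIs and took an ambient RNA estimate off each cell (3.54% of UMIs here), which can lower a gene at trace level. The deposited scores (size factors per cell, from scran) entered 1 alternative. Cell names are the authors', with principal populations numbered as in the study, matched through their cell counts. Doublets (178 cells, 2.00%) were called from simulated doublets, recovering 31.8 to 57.5% of these per library, and were kept. Of 8837 barcodes, 43 occurred in more than 1 library.

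Counts were summed over groups with Python 3.11.15, numpy 2.4.6 and scipy 1.17.1. Intervals are exact Poisson (levels), conditional binomial (ratios) and Clopper-Pearson (shares). In ratios and calls a group at 0 entered at a floor of 3 UMIs. A gene was called at 2 times and 20 UMIs, and library ratios used libraries with at least 50 cells of a type. Thinning to a depth kept only cells with at least that many UMIs, so shares without thinning cover more cells. Calls and intervals were run on simulated Poisson counts. That is the model the intervals assume, so this check cannot show how they hold where UMIs gather in few cells. The members, the lists and the tests were chosen with earlier results of these data known. Named were all members in each type and library, the 3 genes of each list with the highest ratio of the highest to the next type, and the 3 genes most like each member, of which 1 is not reported here. In all, 48 combinations of result and alternative setting were tried (other cells, weights, denominators, thresholds, clusters and thinning). Gene positions were read from GENCODE M21 and promoter letters from RefSeq, both on GRCm38. Protein sequences were not used here.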

Additional observations from a re-analysis of the deposited data

Results flagged for a closer look

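Flagged were 2 cases in which the order of a pair of cell types turned between libraries beyond counting error. With 1 library per region the difference was not tested. Hbegf in clear over stromal cells was 2.77 (2.33 to 3.30) in the cauda, from 540.6 and 195.1 UPM, and 0.741 (0.571 to 0.951) in the corpus, from 158.5 and 213.8 UPM. Areg in basal over stromal cells was 1.77 (1.119 to 2.824) in the cauda, from 51.2 and 29.0 UPM, and 0.457 (0.296 to 0.685) in the vas deferens, from 22.2 and 48.6 UPM. Over all libraries only 104 of 1412 basal and 67 of 2222 stromal cells had an Areg UMI. The Areg intervals, which treat UMIs as independent, can therefore be too narrow. Populations within a type differ between these libraries: 94 of 105 clear cells of the cauda and 69 of 132 of the corpus were main clear cells, and the secretory and stem-like stromal populations were named for the vas deferens. The part of these populations in both flagged reversals was not tested. Basal and clear Tgfa, not among the 2 flagged cases, also turned with intervals apart, on as few as 10 UMIs. Basal and clear cells held 10.6 (5.95 to 17.5) and 37.6 (18.0 to 69.2) UPM of Tgfa in the caput. In the corpus they held 56.8 (47.8 to 67.0) and 27.8 (14.8 to 47.6) UPM.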

How the results depend on the processing

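No paired analysis was possible because each region was 1 library and no result came from a test. Of 241 values recomputed under other settings, 186 stayed within their interval or within 1.5 times, 44 moved, 8 turned direction, 2 fell and 1 rose; the causes were not tested.

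For the ratio of the highest to the next cell type, 23 of 84 values moved and 7 turned. With the 21 deposited clusters (the highest cluster mostly of that type over the highest mostly of another) it was 2.42 for Egfr, 6.53 for Erbb2, 0.607 for Erbb3, 0.655 for Hbegf, 1.25 for Areg, 3.07 for Nrg1 and 1.59 for Tgfa. As a mean over cells it was 5.43 for Egfr, 0.780 for Erbb2, 0.987 for Hbegf, 1.67 for Areg, 4.52 for Nrg1 and 1.66 for Tgfa. With equal weight of libraries it was 5.47 for Egfr, 0.951 for Hbegf, 1.93 for Areg and 8.66 for Nrg1. Without the corpus library it was 1.37 for Hbegf, 1.77 for Areg, 4.62 for Nrg1 and 0.853 for Tgfa. Without the vas deferens library it was 8.51 for Egfr, 1.44 for Hbegf, 5.41 for Areg, 16.3 for Nrg1 and 0.984 for Tgfa. Hbegf gave 1.15 without the cauda library, 1.16 without the 50 most abundant genes and 1.122 with the authors' size factors, which gave 4.44 for Areg.

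With cells of at least 1000 UMIs only, 5 members were called, Erbb2 and Erbb3 being added. Erbb2 was also called without the corpus or the vas deferens library, with equal weight of libraries, without the 50 most abundant genes, with the size factors and by clusters, and Erbb3 without doublets and without populations of low UMIs or mixed type. At 4 times, 4 genes of the lists were called in place of 18. Pairs past 2 times between libraries numbered 10 or 11 of 17 with other cells or denominators, and 15 of 24 with a minimum of 10 UMIs. At 4 times, 8 of 17 passed. No share over all genes is given for these settings. Of the 21 genes most alike, 7 were shared with Spearman's rho. Library ratios that moved as means over cells were basal Hbegf corpus over caput to 2.01, basal Tgfa cauda over caput to 15.7 and endothelial Hbegf vas deferens over caput to 1.59.

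Of the shares of cells, 10 of 21 moved with the thinning, and of the joint shares 6 of 12. Thinned to 500 UMIs, shares were 6.81% for basal Egfr, 1.88% for principal Erbb2, 0.687% for clear Erbb3, 45.5% for endothelial Hbegf, 9.36% for basal Nrg1 and 2.62% for basal Tgfa. Over all cells of the type, without thinning, they were 34.3% for Egfr, 7.36% for Erbb2, 41.9% for Nrg1 and 18.3% for Tgfa. Joint shares in basal cells were 3.59% for Hbegf with Egfr and 0% for Nrg1 with Erbb3 at 500 UMIs, and without thinning 30.9% for Hbegf, 3.47% for Areg and 8.64% for Tgfa with Egfr and 0.921% for Nrg1 with Erbb3. In the early-response split at 500 UMIs, basal Areg gave 0.941 and stromal Hbegf 0.993, and basal Hbegf split within each library gave 0.739.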

Other observations

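The remaining ligands of the family also varied between libraries. Egf, which encodes epidermal growth factor, was 1.74 UPM in principal cells of the caput on 3 UMIs, against 70.5 (57.3 to 85.7), 24.7 (17.9 to 33.3) and 19.2 (15.5 to 23.6) UPM for corpus, cauda and vas deferens. It was highest in principal 6, at 138.6 UPM, the population that was also highest in Erbb2. Epgn in basal cells was 26.2, 25.2, 13.6 and 30.3 UPM from caput to vas deferens, and the cauda interval (7.24 to 23.2) overlapped those of the others. Basal Epgn therefore did not share the low caput level of Tgfa and Areg. Nrg2 in basal cells was highest in the caput, at 43.9 UPM (33.7 to 56.3), against 16.3 to 21.5 in the other libraries. In stromal cells Nrg2 was 38.3, 10.2, 11.9 and 41.4 UPM. Stem-like stromal cells of the vas deferens held 57.0 UPM, the same population that held Nrg1.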
